A study of Homo sapiens with 56 samples.

Results

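HT29 is an established human line of epithelial cells from a colorectal adenocarcinoma. It is described here by its response to 2-methylisocitrate (2-MiCit), over 8 of the 56 RNA sequencing libraries of a study of 7 colorectal cancer lines. All 4 treated libraries (numbered 1 to 4) received 10 mM 2-MiCit, all 4 control libraries received water, the vehicle, and the members are every gene counted in them. The labels give HT29 as wild-type, with no added allele or agent in either group. The labels' growth protocol names other lines of the study, and how long HT29 was treated is not stated in the labels. They do not say either whether the 4 libraries of a group are separate cultures; a p-value here reflects the spread among those libraries alone, and that spread may be technical.

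2-MiCit is an intermediate of the methylcitrate cycle, by which many bacteria and fungi break propionate down to pyruvate and succinate; it resembles isocitrate of the tricarboxylic acid cycle with an added methyl group. The title of the study presents it as a metabolite of cancer-associated microbes that modulates chemotherapy, and the comparison asks how gene expression in HT29 differs with it. As background to the genes below, cells entering mitosis raise a shared set of late genes for cyclin B, the spindle and the anaphase-promoting complex, many of which carry CCAAT boxes and a cell cycle homology region (CHR) in their promoters. Falling membrane sterol releases the SREBP transcription factors, which switch on cholesterol synthesis and uptake. TXNIP and ARRDC4, a pair of related arrestin-fold proteins that restrain glucose uptake, are known targets of the sugar-sensing MondoA and ChREBP factors, which bind paired E-boxes.

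The 8 libraries held 29.1 to 34.1 M counts each. Of 14 markers of colon epithelium, the 13 in the table summed to 9730 to 10600 CPM (counts scaled to a common library total) in controls and 9880 to 10800 CPM with 2-MiCit. The keratins KRT8 and KRT18 led the sum, with control means of 4990 and 2700 CPM. CDX2, a defining intestinal factor, was low at 2.11 to 3.68 CPM. Control means were low as well for CDX1 (0.341 CPM), CDH17 (1.87), GPA33 (3.38) and CEACAM5 (9.17). They were higher for KRT20 (47.4), VIL1 (158) and TSPAN8 (299). Of the fibroblast, endothelial and neural markers, 4 of 10, 2 of 8 and 3 of 8 were in the table. These summed to at most 3.47, 2.29 and 2.32 CPM in any library. The 5 of 10 leukocyte markers in the table summed to 1700 to 1880 CPM. Nearly all of it was lysozyme (LYZ), which Paneth-type gut cells also make. The other 4 leukocyte genes summed to 12 to 14.2 CPM in controls and 10.6 to 12.7 CPM with 2-MiCit. The libraries numbered 2 stood apart in both groups: of the 40 DNA replication genes tested, 36 were highest in control 2 among controls and 39 were highest in 2-MiCit library 2 among treated libraries. Over all genes tested, 14.1% were highest in both libraries numbered 2. For some lists and genes below, results are also given without them.

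With 2-MiCit, 646 genes were higher and 419 lower of 13887 tested, 4.65% and 3.02% of them, at an adjusted p below 0.05 (edgeR quasi-likelihood test, Benjamini-Hochberg adjustment, two-sided, as for each adjusted p that follows). The changes were small. The median size among called genes was 0.27 on the log2 scale, and 122 higher against 13 lower genes exceeded 1.5-fold, of which 34 and 7 exceeded 2-fold. Every 2-MiCit library lay above every control for 1253 genes (9.02%) and below every control for 1015 (7.31%), called or not. DESeq2 called 825 higher (5.94%) and 726 lower (5.23%), and at an unadjusted p below 0.05 edgeR gave 1813 (13.1%) and 1547 (11.1%). The counts depended on single libraries: they were 323 higher and 175 lower without control 1, 299 and 153 without control 3, 353 and 179 without 2-MiCit library 3, and 345 and 231 without 2-MiCit library 4. Without both libraries numbered 2 they were 557 and 404.

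**Figure D1:**
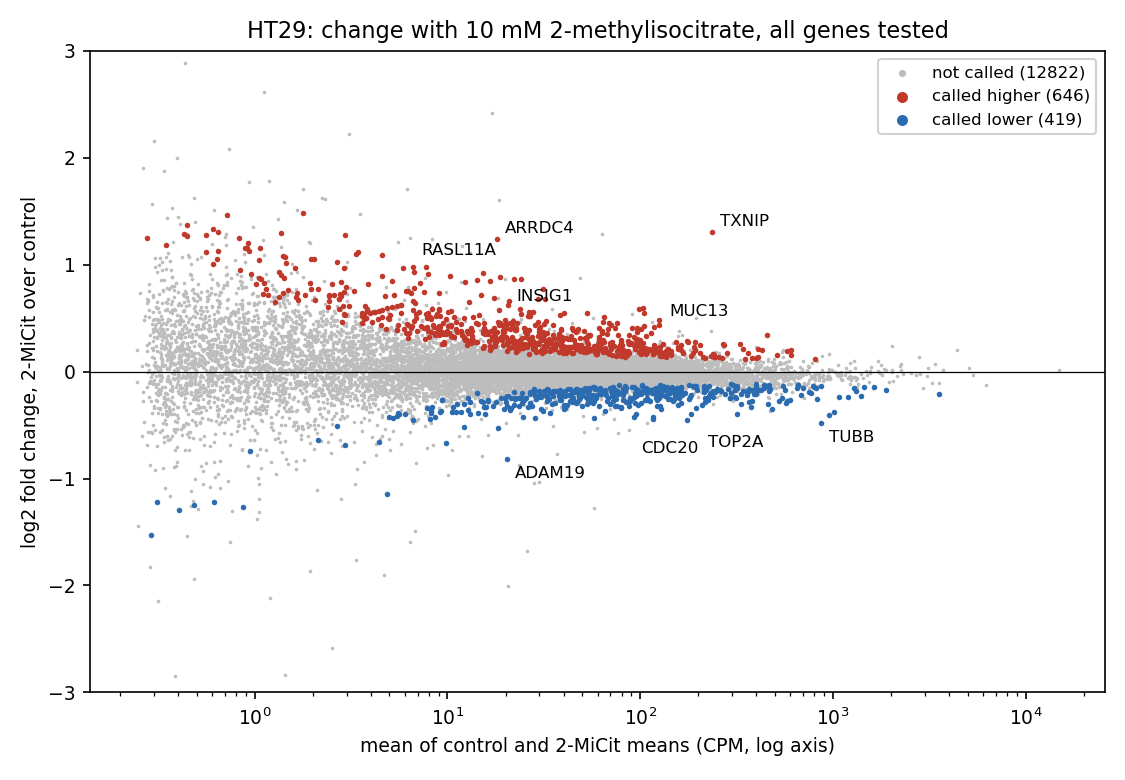
Log2 fold change of each of the 13887 genes tested in HT29 (2-MiCit over control, vertical axis) against the mean of the group means (CPM, log axis). Red points are the 646 genes called higher and blue points the 419 called lower; 5 uncalled genes lie beyond the vertical limits. TXNIP lies furthest from 0 among the genes above 100 CPM, and the median called gene lies 0.27 from 0.

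TXNIP (ENSG00000265972, GRCh38 chromosome 1, 145992435 to 145996600) had the largest log2 fold change among genes above 100 CPM. Control libraries 1 to 4 held TXNIP at 143, 160.0, 124 and 117 CPM, and the 2-MiCit libraries at 377, 288, 348 and 330 CPM. The groups did not overlap, and the lowest treated library stood well above the highest control. The mean went from 135.9 ± 19.4 to 335.6 ± 37.1 CPM (SD, n = 4), a log2 fold change of 1.30 ± 0.12 (SE, adjusted p = 0.0012). Its relative ARRDC4 followed the same course, with control libraries at 11.2, 12.6, 10.1 and 9.12 CPM and treated libraries at 27.5, 23.3, 25.7 and 24.7 CPM. All treated libraries lay above all controls, with a log2 fold change of 1.24 ± 0.09 (adjusted p = 0.00013). MLXIP, which encodes MondoA, rose by a smaller amount, with a log2 fold change of 0.29 ± 0.06 (adjusted p = 0.019); it was chosen after its values were seen. MLXIPL, which encodes ChREBP, stood at 1.17 to 1.95 CPM over the 8 libraries and was not called (log2 fold change -0.25, adjusted p = 0.48).

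The TXNIP promoter is shown because it holds a paired E-box, searched as CACGNG, 5 bases of any kind and CACGNG on both strands, in the window from 250 bases before to 50 after the start. That spaced motif was in 20 of 27305 RefSeq promoter windows (0.0732%) and in 16 of the 10020 tested genes with a promoter there (0.16%). Among genes called higher it was in 1 of 461 (0.217%) and among genes called lower in 1 of 319 (0.313%). In the 250 bases upstream of the TXNIP start, at chr1:145996580-145996829 (minus strand) in GRCh38.p14, capitals mark it at -88 to -72 counted from the start.
TXNIP: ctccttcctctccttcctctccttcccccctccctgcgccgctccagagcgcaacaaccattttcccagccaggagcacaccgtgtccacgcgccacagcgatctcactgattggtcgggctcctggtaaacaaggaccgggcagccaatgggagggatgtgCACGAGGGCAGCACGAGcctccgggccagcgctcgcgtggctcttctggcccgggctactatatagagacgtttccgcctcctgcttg
In this window ARRDC4 had no match to these letters, which says nothing about the factor.

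In the growth arrest and G1 list, 9 of 26 members tested rose and none fell, beside 4.65% of all genes called higher. The median log2 fold change was 0.16, against 0.00 over all genes tested. DESeq2 also called 9 higher and none lower, and at an unadjusted p below 0.05 the counts were 13 and 1. Of those that rose, TXNIP and ARRDC4 are described above. BTG2, an antiproliferative gene, went from 19.7 ± 1.3 to 28.5 ± 2.4 CPM (log2 fold change 0.54 ± 0.07, adjusted p = 0.0015), and YPEL2 and YPEL3, of a family of small zinc-binding proteins, rose by log2 0.47 and 0.38. The G1/S cyclins rose too: CCNE1 stood at 4.82 to 6.02 CPM in controls and 6.65 to 9.41 CPM with 2-MiCit, and CCNE2 at 2.78 to 3.86 and 4.04 to 5.92 CPM. In both, the highest treated library was number 2, yet neither pair of groups overlapped. The cyclin-dependent kinase CDK6 and KLHL24 were the other 2 members called; the KLHL24 groups overlapped. Leaving out control 1, control 3 or 2-MiCit library 3 brought the count to 4, and leaving out control 4 or 2-MiCit library 4 to 5; without both libraries numbered 2 it was 6, and with the authors' gene-wise factors 4.

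Mitosis genes fell together. Of 30 mitosis genes tested, 26 fell and none rose, beside 3.02% of all genes called lower, and all 30 had a log2 fold change below 0. The median was -0.25 and the range of the called members -0.18 to -0.45, with standard errors that had a median of 0.044, against 0.066 over all genes. In 28 of the 30 every treated library lay below every control, beside 7.31% of all genes. DESeq2 called 27 lower and none higher, and at an unadjusted p below 0.05 the counts were 29 and 0. With any 1 library left out the count called lower ran from 21 to 26, and without both libraries numbered 2 it was 24.

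CDC20 (GRCh38 chromosome 1, 43358955 to 43363203), which activates the anaphase-promoting complex, had the largest fall of the list. Its control libraries 1 to 4 stood at 195, 193, 207 and 209 CPM, and treated libraries at 140.5, 149.6, 141.9 and 155.6 CPM. The gap between the groups was wider than the spread within either, with a log2 fold change of -0.45 ± 0.04 (adjusted p = 0.00039). UBE2C, the ubiquitin-conjugating enzyme of the same complex, went from 208.3 ± 10.2 to 157.9 ± 9.0 CPM (log2 fold change -0.40 ± 0.05, adjusted p = 0.0011). Among regulators of mitotic entry, CCNB1 (cyclin B1) had control values of 213, 207, 222 and 223 CPM and treated values of 164, 176, 164 and 178 CPM. No treated library reached the controls, and the log2 fold change was -0.34 ± 0.04 (adjusted p = 0.0011). Its partner kinase CDK1 fell from 132.9 ± 6.2 to 110.3 ± 7.4 CPM, the phosphatase CDC25C from 38.6 ± 2.3 to 29.5 ± 1.3 CPM and the kinase PLK1 from 230.8 ± 11.6 to 186.4 ± 12.7 CPM. HMMR, a spindle-pole protein, and TOP2A, the topoisomerase that untangles chromosomes and a drug target, fell by 0.44 and 0.27 on the log2 scale. TOP2A was at 606 to 638 CPM in controls and 505 to 536 CPM with 2-MiCit.

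The kinetochore and checkpoint genes BUB1, BUB1B, TTK, MAD2L1, NUF2, NDC80, CENPE and CENPF all fell, NUF2 from 29.2 ± 0.6 to 23.1 ± 0.7 CPM, as did the kinases AURKA and AURKB and the spindle motors KIF11, KIF20A, KIF23 and KIF2C. The 4 members not called were ESPL1 (log2 fold change -0.19, adjusted p = 0.17), CENPA (-0.12, 0.28), BUB3 (-0.10, 0.067) and BIRC5 (-0.08, 0.16). BIRC5, the survivin subunit of the Aurora B complex, stood at 123 to 127 CPM in controls and 114 to 122 CPM with 2-MiCit, so its groups did not overlap.

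Genes of the DNA replication machinery were mostly not called. Of 40 tested, 1 fell and none rose, beside 3.02% of all genes called lower, and the median was -0.02. At an unadjusted p below 0.05, 4 were lower and none higher, and DESeq2 called 1 lower and none higher. The called gene was RPA3, a subunit of the single-strand binding complex (log2 fold change -0.25 ± 0.06, adjusted p = 0.026), whose call was lost with the authors' gene-wise factors and without any of control 1, control 2, control 3, 2-MiCit library 3 or 2-MiCit library 4 (adjusted p up to 0.114 over all alternatives). Over the list, log2 fold changes ran from -0.27 to 0.24, with 19 above 0 and 21 below. The helicase gene MCM4, which leaned higher, is 1 example of the spread among libraries. It stood at 88.7, 116, 84.3 and 80.4 CPM in control libraries 1 to 4 and 97.2, 160, 91.3 and 88.2 CPM in treated ones. The groups overlapped, and library 2 was the highest of each. The median standard error in this list was 0.097, more than that of the mitosis list. Without both libraries numbered 2, 1 member fell, none rose and the median was -0.06.

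**Figure D2:**
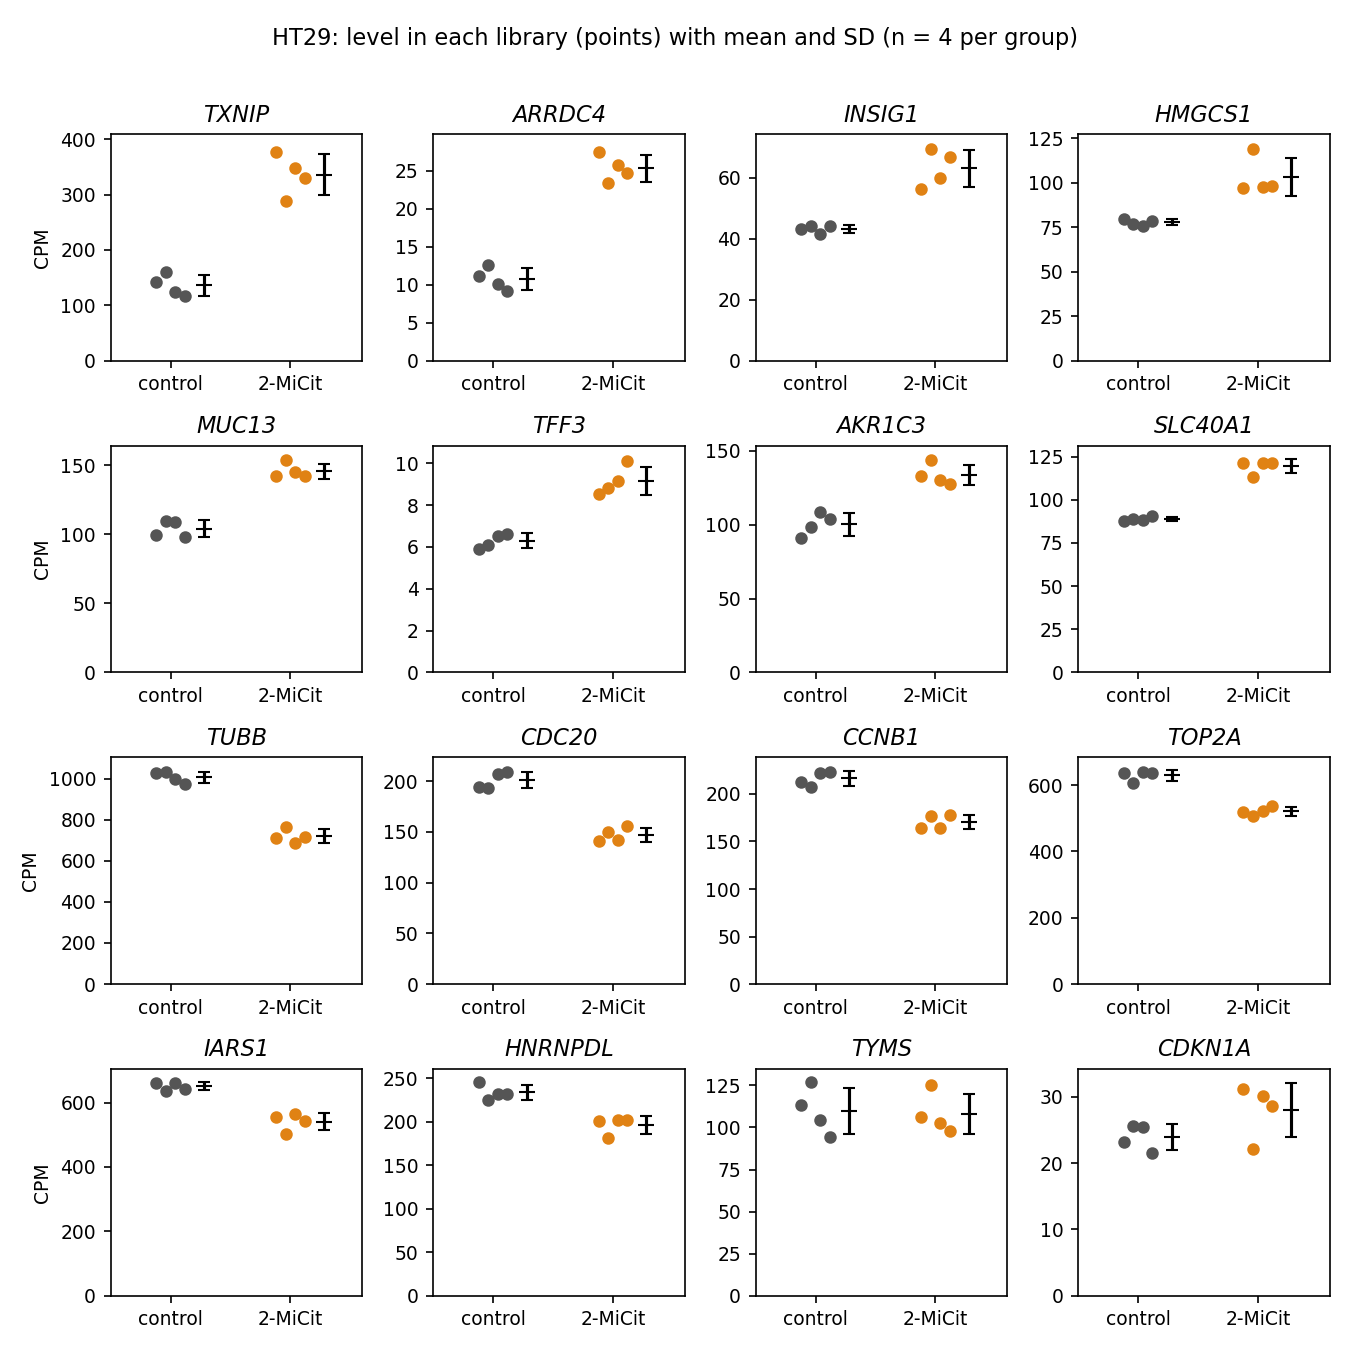
Level of 16 genes in each HT29 library (points, CPM on axes from 0), with the mean and SD of the 4 libraries of a group at the right of its points. Groups do not overlap for any gene shown except TYMS and CDKN1A; TXNIP and ARRDC4 rise more than 2-fold, while the mitotic genes CDC20, CCNB1 and TOP2A fall by less.

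Promoters of mitosis genes are shown because most of the list fell together. The CCAAT box (CCAAT) and the CHR (TTTGAA) were searched on both strands in the same windows of 300 bases. The CHR was in 16 of the 24 mitosis promoters in the RefSeq table (66.7%), in 0 of 34 DNA replication promoters, in 9.85% of the 10020 tested genes with a promoter there and in 15.4% of all 27305; among genes called lower it was in 79 of 319 (24.8%) and among genes called higher in 44 of 461 (9.54%). CCAAT was in 18 of 24 mitosis promoters, 21 of 34 replication promoters (61.8%) and 35.7% of all. An E2F site, GCGGGAA, was in 2 of 24 (8.33%), 14 of 34 (41.2%) and 6.56%. Each sequence gives 250 bases upstream of the start in GRCh38.p14, with CCAAT and CHR letters in capitals on whichever strand they match (ATTGG and TTCAAA are the reverse complements), or for PCNA, a replication gene, CCAAT and E2F letters: CDC20 at chr1:43358731-43358980 (plus strand), TOP2A at chr17:40417897-40418146 (minus strand), HMMR at chr5:163460382-163460631 (plus strand), CCNB1 at chr5:69166900-69167149 (plus strand) and PCNA at chr20:5126623-5126872 (minus strand).
CDC20: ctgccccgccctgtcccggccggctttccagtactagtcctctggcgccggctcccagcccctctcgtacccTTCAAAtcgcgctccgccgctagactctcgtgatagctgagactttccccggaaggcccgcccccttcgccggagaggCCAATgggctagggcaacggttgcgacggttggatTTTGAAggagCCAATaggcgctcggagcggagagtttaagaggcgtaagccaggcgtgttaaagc
TOP2A: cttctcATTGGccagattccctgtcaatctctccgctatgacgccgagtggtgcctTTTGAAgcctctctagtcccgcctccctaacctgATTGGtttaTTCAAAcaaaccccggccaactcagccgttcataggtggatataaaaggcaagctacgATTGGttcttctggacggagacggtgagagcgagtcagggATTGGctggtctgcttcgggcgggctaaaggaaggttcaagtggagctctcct
HMMR: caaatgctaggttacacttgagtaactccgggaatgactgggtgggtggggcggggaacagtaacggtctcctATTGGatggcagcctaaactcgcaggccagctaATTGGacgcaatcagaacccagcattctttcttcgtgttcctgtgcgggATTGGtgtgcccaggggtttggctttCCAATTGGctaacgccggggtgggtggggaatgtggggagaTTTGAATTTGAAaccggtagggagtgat
CCNB1: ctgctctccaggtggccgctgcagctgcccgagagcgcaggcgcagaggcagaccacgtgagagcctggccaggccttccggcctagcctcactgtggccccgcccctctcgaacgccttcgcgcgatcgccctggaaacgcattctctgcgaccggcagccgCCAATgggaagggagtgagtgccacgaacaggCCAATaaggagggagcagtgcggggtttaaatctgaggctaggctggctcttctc
PCNA: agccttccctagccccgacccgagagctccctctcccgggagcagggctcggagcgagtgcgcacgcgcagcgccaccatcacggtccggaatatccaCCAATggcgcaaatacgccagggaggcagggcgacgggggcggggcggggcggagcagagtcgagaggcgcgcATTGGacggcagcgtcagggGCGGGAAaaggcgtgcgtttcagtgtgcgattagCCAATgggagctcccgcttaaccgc
CDC20 has CHR letters at -178 and -65 and TOP2A at -194 and -151, counted from the start. In HMMR they repeat at -28 and -22. No other mitosis promoter had more than 1 CHR match. ESPL1 and CENPA, which were not called, had 1 each. CCNA2, AURKB, BUB1, CDC25C, KIF20A, KIF2C and CENPE, which fell, had none, like CCNB1 below. Every mitosis promoter without a CHR match thus belonged to a gene that fell. The last pair of CCAAT matches in HMMR, on opposite strands, overlaps. CCNB1 has 2 CCAAT boxes and no exact CHR match in its window, and it fell as TOP2A did. PCNA has 3 CCAAT boxes and 1 E2F match, and was not called (log2 fold change 0.15, adjusted p = 0.42). These matches are descriptions of letters, not of bound sites.

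Among tubulins, the subunits of the spindle and of other microtubules, the 4 with the highest levels fell. Of 10 tested, 4 fell and none rose, beside 3.02% of all genes called lower, with a median of -0.23. DESeq2 also called 4 lower and none higher, and at an unadjusted p below 0.05 the counts were 6 and 0. TUBB (ENSG00000196230, GRCh38 chromosome 6, 30720201 to 30725426) stood at 1027, 1031, 1001 and 973 CPM in control libraries 1 to 4 and at 712, 767, 686 and 716 CPM with 2-MiCit. The groups were far apart for their spread, with a log2 fold change of -0.49 ± 0.04 (adjusted p = 0.00013). TUBA1B fell from 1090 ± 59 to 823 ± 82 CPM, TUBA1C from 542 ± 30 to 425 ± 6 CPM and TUBB4B from 509 ± 22 to 411 ± 20 CPM. TUBB3, TUBA1A, TUBA4A, TUBB2A, TUBB2B and TUBG1 were not called. Reads shared between members of close sequence make the split among them uncertain. All 4 calls held under every alternative tried.

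Of 25 genes of cholesterol synthesis and uptake tested, 12 rose and none fell, beside 4.65% of all genes called higher; 24 of 25 had a log2 fold change above 0 and the median was 0.29. DESeq2 called 14 higher and none lower, and at an unadjusted p below 0.05 the counts were 17 and 0. The feedback protein INSIG1 (GRCh38 chromosome 7, 155297776 to 155310235), itself an SREBP target, stood at 43.1, 44.1, 41.4 and 44.2 CPM in control libraries 1 to 4 and at 56.1, 69.3, 59.9 and 66.8 CPM with 2-MiCit. The control values were nearly equal and all treated values higher, with a log2 fold change of 0.55 ± 0.06 (adjusted p = 0.00098). Of the early mevalonate steps, HMGCS1 held 79.7, 77.0, 75.8 and 78.3 CPM in controls and 96.9, 119, 97.8 and 98.3 CPM when treated, with a log2 fold change of 0.41 ± 0.06 (adjusted p = 0.0036).

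Further down the pathway, IDI1, MVK and MVD rose, as did LSS, CYP51A1, MSMO1, HSD17B7 and SC5D of the sterol steps; MSMO1 went from 21.9 ± 0.4 to 28.3 ± 1.9 CPM and IDI1 from 55.2 ± 2.8 to 71.8 ± 6.2 CPM. SQLE had a log2 fold change of 0.38 with an adjusted p of 0.071. In 22 of the 25 genes 2-MiCit library 2 was the highest treated library, and in 19 control 2 was the highest control. Without both, 15 members rose and the median was 0.29. The count fell to 7 without control 1 and to 5 without control 3, and with the authors' gene-wise factors it was 7; with any other library left out it was 8 to 14. INSIG1, HMGCS1, MSMO1 and IDI1 kept their calls under every alternative. SREBF2, which encodes SREBP2, was not called (log2 fold change 0.13, adjusted p = 0.10).

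Acetyl-CoA and fatty acid genes gave fewer calls. ACSS2, the cytosolic acetyl-CoA synthetase, went from 14.9 ± 0.9 to 22.3 ± 1.0 CPM (log2 fold change 0.58 ± 0.06, adjusted p = 0.00069). It was the single member called of 12 fatty acid synthesis genes, beside 4.65% of all genes called higher. DESeq2 called 3 higher and none lower, and at an unadjusted p below 0.05 the counts were 4 and 1. ACSS1, the mitochondrial relative of ACSS2, rose from 63.9 ± 4.2 to 87.6 ± 5.5 CPM (0.46 ± 0.06, adjusted p = 0.0013). FASN, fatty acid synthase, had a log2 fold change of 0.35 with an adjusted p of 0.31.

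**Figure D3:**
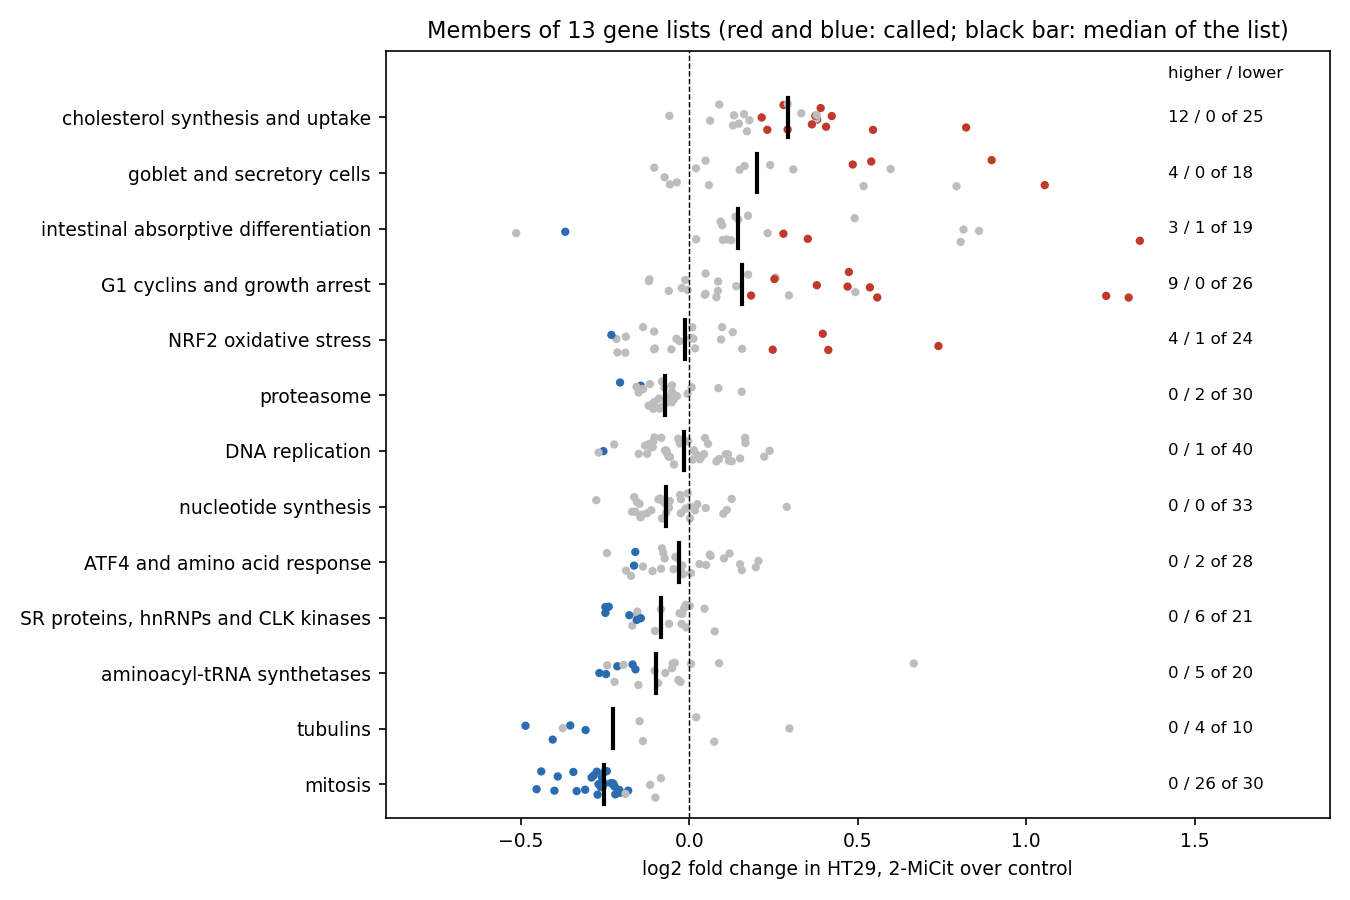
Log2 fold change in HT29 (2-MiCit over control) of the tested members of 13 gene lists, 1 point per gene, with vertical scatter for sight only. Red and blue points are called higher and lower, grey points are not called, black bars are medians, the dashed line is the median of all genes, and counts of calls stand at the right. The mitosis points lie to the left of 0 and the cholesterol points, but for PMVK, to the right.

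Genes of secretory and absorptive gut cells rose in part. Of 18 goblet and secretory genes tested, 4 rose and none fell, beside 4.65% of all genes called higher, with a median of 0.20. DESeq2 called 5 higher and 1 lower, and at an unadjusted p below 0.05 the counts were 6 and 1. With a stricter filter on low counts 2 rose. MUC13, a membrane mucin, stood at 99.9, 109.9, 109.1 and 97.8 CPM in control libraries 1 to 4 and at 142, 154, 145 and 142 CPM with 2-MiCit. Treated libraries all exceeded the controls, with a log2 fold change of 0.49 ± 0.05 (adjusted p = 0.00039). TFF3, a goblet cell trefoil peptide, went from 6.30 ± 0.35 to 9.15 ± 0.69 CPM (0.54 ± 0.08, adjusted p = 0.0033) and REG4 from 3.19 ± 0.43 to 5.94 ± 0.68 CPM. ATOH1, the secretory lineage factor, was at 1.04 to 1.64 CPM in controls and 1.64 to 3.33 CPM when treated; its call was lost without any of control 1, control 2, control 3, 2-MiCit library 3 or 2-MiCit library 4, and without both libraries numbered 2 (adjusted p up to 0.0829). MUC2, the main secreted mucin of goblet cells, was not called, at 1.14 to 3.19 CPM over the 8 libraries.

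Among 19 absorptive genes, 3 rose and 1 fell, beside 4.65% and 3.02% of all genes called higher and lower. The median was 0.15. DESeq2 called 3 higher and 2 lower, and at an unadjusted p below 0.05 the counts were 9 and 2. VIL1, the actin bundler of microvilli, went from 159.4 ± 8.5 to 193.5 ± 7.7 CPM (log2 fold change 0.28 ± 0.04, adjusted p = 0.0042), a call lost with the authors' gene-wise factors (adjusted p = 0.0586). CEACAM1 went from 58.8 ± 0.7 to 75.1 ± 4.7 CPM, with no overlap. CDX1, an intestinal homeobox factor, went from 0.34 ± 0.09 to 0.87 ± 0.29 CPM, and its call was lost without control 1 or control 3 and without both libraries numbered 2. CEACAM5, the carcinoembryonic antigen, fell from 9.24 ± 0.31 to 7.16 ± 0.80 CPM; its call was lost with the authors' gene-wise factors, without both libraries numbered 2, and without any of control 1, 2 or 3 or 2-MiCit libraries 1 or 3. KRT20, a marker of differentiated colonocytes, was not called (adjusted p = 0.62).

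Other large changes came in genes of diverse function. FMO5, a flavin monooxygenase of gut and liver, went from 2.93 ± 0.42 to 6.24 ± 0.83 CPM (log2 fold change 1.09 ± 0.14), NEB from 5.24 ± 0.73 to 10.3 ± 1.7 CPM, and RASL11A, a small GTPase, from 4.49 ± 0.65 to 8.83 ± 0.75 CPM. PRLR (the prolactin receptor), PLA2G4F (a phospholipase A2), GABRP (a GABA receptor subunit) and PHGR1 rose by log2 0.94, 0.91, 0.89 and 0.88; the calls of the first 3 were lost with the authors' gene-wise factors. H2AC6, a histone gene with near-identical copies and so uncertain, rose from 10.5 ± 1.0 to 19.9 ± 2.7 CPM. SLC40A1, ferroportin, the iron exporter, went from 89.0 ± 1.2 to 119.3 ± 4.0 CPM (log2 fold change 0.42 ± 0.04, adjusted p = 0.00014). It was the single member called of 13 iron genes, beside 4.65% of all genes called higher. DESeq2 called 2 iron genes higher and none lower, and at an unadjusted p below 0.05 the counts were 4 and 0. CCN2, a matricellular growth factor, stood at 9.06 to 12.2 CPM in controls and 17.1 to 21.5 CPM with 2-MiCit.

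On the lower side, ADAM19, a membrane metalloprotease, stood at 28.5, 22.6, 24.5 and 27.8 CPM in control libraries 1 to 4 and at 14.3, 13.4, 15.9 and 15.0 CPM with 2-MiCit. The groups were well apart, and the log2 fold change was -0.82 ± 0.08 (adjusted p = 0.00049). AL139300.1, a protein-coding gene of chromosome 14 with a clone-based name, fell from 6.68 ± 0.39 to 3.03 ± 0.14 CPM (-1.14 ± 0.09). NTSR1, the neurotensin receptor, went from 134.3 ± 9.0 to 98.5 ± 10.1 CPM, SEMA3A, a semaphorin, from 32.8 ± 3.7 to 24.2 ± 1.5 CPM, and DHRS2, a dehydrogenase/reductase, from 21.5 ± 0.6 to 14.9 ± 2.0 CPM.

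Some splicing and tRNA synthetase genes fell by small amounts. Of 21 SR protein, hnRNP and CLK kinase genes, which act in splicing, 6 fell and none rose, beside 3.02% of all genes called lower. The median was -0.08. DESeq2 called 8 lower and none higher, and the unadjusted counts were 9 and 0. HNRNPDL stood at 245, 225, 232 and 232 CPM in control libraries 1 to 4 and 202, 181, 202 and 202 CPM with 2-MiCit, and the log2 fold change was -0.25 ± 0.04 (adjusted p = 0.0069). The splicing kinase CLK3 fell by 0.25 on the log2 scale, a call lost with the authors' gene-wise factors, and HNRNPA2B1, HNRNPD, HNRNPC and HNRNPA1 fell by 0.24, 0.18, 0.16 and 0.14; the HNRNPA2B1 call was lost under 6 of the alternatives (adjusted p up to 0.0799). The list's count was 3 without control 1, 2 without control 3, 3 without 2-MiCit library 3 and 2 with the authors' gene-wise factors.

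Of 20 aminoacyl-tRNA synthetases, which load amino acids on tRNA, 5 fell and none rose, beside 3.02% of all genes called lower. The median was -0.10. DESeq2 called 7 lower and none higher, and at an unadjusted p below 0.05 the counts were 10 lower and 1 higher. IARS1 held 661, 637, 662 and 644 CPM in control libraries 1 to 4 and 556, 502, 563 and 543 CPM with 2-MiCit, with a log2 fold change of -0.27 ± 0.04 (adjusted p = 0.0028). LARS1, FARSB, NARS1 and AARS1 were the others. The count was 3 without any of control 1, 2 or 3 or 2-MiCit libraries 3 or 4, and 2 with the authors' gene-wise factors. In the wider ATF4 and amino acid list, 2 of 28 fell (PHGDH and PYCR1 of serine and proline synthesis) and none rose; DESeq2 called 3 lower and none higher, and unadjusted counts were 5 and 1. Both of those calls were lost under several alternatives, with adjusted p up to 0.12 for PHGDH and 0.0827 for PYCR1.

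Of 24 NRF2 oxidative stress genes, 4 rose, 1 fell and 19 were not called, beside 4.65% and 3.02% of all genes called higher and lower. The median was -0.01. DESeq2 called 4 higher and 4 lower, and at an unadjusted p below 0.05 the counts were 5 and 6. Those that rose were all aldo-keto reductases: AKR1C3 went from 100.5 ± 7.8 to 133.7 ± 6.9 CPM (log2 fold change 0.41 ± 0.06, adjusted p = 0.0019), AKR1C2 from 6.78 ± 0.42 to 11.3 ± 0.9 CPM, AKR1C1 from 9.61 ± 0.68 to 12.6 ± 0.4 CPM, and AKR1B10 from 85.0 ± 3.4 to 100.9 ± 10.3 CPM. AKR1C1 to AKR1C3 are related in sequence, so their split is uncertain, and the AKR1C1 call was lost with the authors' gene-wise factors. The AKR1B10 call was lost there too, and without any of control 1, 3 or 4 or 2-MiCit libraries 1, 3 or 4 (adjusted p up to 0.123). SRXN1, which restores oxidised peroxiredoxin, fell from 77.5 ± 2.7 to 66.0 ± 2.4 CPM. In the unfolded protein response list HERPUD1 rose (log2 fold change 0.23 ± 0.04) and the chaperone HSPA5 fell (-0.19 ± 0.04) of 17 tested; the HSPA5 call was lost without control 1, control 3, 2-MiCit library 3 or 2-MiCit library 4.

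Genes tied to fluoropyrimidine chemotherapy and to citrate were mostly not called. Thymidylate synthase, TYMS, the target of 5-fluorouracil, stood at 113, 127, 104 and 94.3 CPM in control libraries 1 to 4 and at 106, 125, 103 and 97.7 CPM with 2-MiCit. The groups overlapped throughout, and the log2 fold change was -0.02 ± 0.10 (adjusted p = 0.92). DPYD, which degrades the drug, and UMPS and TYMP, which activate it, had log2 fold changes of 0.05, -0.08 and -0.11 with adjusted p of 0.73, 0.36 and 0.84. Other pyrimidine genes leaned lower without a call in the main test. UCK2, TK1 and UPP1 had log2 fold changes of -0.16, -0.15 and -0.28 with adjusted p of 0.056, 0.11 and 0.18. The UCK2 groups did not overlap. These genes were called lower under 5, 4 and 2 of the alternatives. Of 33 nucleotide synthesis genes, edgeR called none, with 7 lower and none higher at an unadjusted p below 0.05 and 3 lower by DESeq2; without both libraries numbered 2, edgeR called 3 lower. Their median was -0.07.

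CDKN1A, the p21 cell cycle inhibitor, stood at 23.2, 25.6, 25.5 and 21.5 CPM in control libraries and 31.2, 22.2, 30.1 and 28.6 CPM with 2-MiCit. Library 2 was the lowest treated value, at the level of the controls, and the gene was not called (adjusted p = 0.21). It was called higher under 3 of the alternatives, and its log2 fold change ran from 0.17 to 0.36 over all of them.

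None of 21 tricarboxylic acid cycle genes and none of 6 citrate and dicarboxylate transport genes was called by edgeR. At an unadjusted p below 0.05 the cycle genes gave 1 higher and 2 lower and the transport genes none, and DESeq2 called 1 cycle gene lower and no transport gene. Citrate synthase, CS, was at 328 ± 13 and 319 ± 16 CPM and the citrate carrier SLC25A1 at 156.4 ± 20.6 and 164.9 ± 15.1 CPM in control and treated libraries. IDH1 and IDH2, the NADP-dependent isocitrate dehydrogenases, had log2 fold changes of 0.07 and 0.14 with adjusted p of 0.23 and 0.16. Of 12 propionate and methylmalonate genes, ACSS1 rose and PCCB, a subunit of propionyl-CoA carboxylase, fell by 0.15 on the log2 scale, a call lost under several alternatives (adjusted p up to 0.122). Of 45 nuclear respiratory chain genes 2 fell (NDUFB9 and ATP5F1B) and none rose, beside 3.02% of all genes called lower; neither was called without control 1, 2 or 3, without 2-MiCit library 3 or with the authors' gene-wise factors. None of 13 mitochondrially encoded genes was called. DESeq2 called 3 respiratory chain genes lower and 1 mitochondrially encoded gene higher, and unadjusted counts were 5 lower and 1 higher, and 2 higher.

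Of the other lists, 2 of 20 interferon genes rose (OAS1 and CMPK2), beside 4.65% of all genes called higher. So did 2 of 14 NF-kappaB genes (NFKB1 and TNFAIP3) and 2 of 20 Wnt and stem cell genes (PROM1 and ASCL2). None was lower in any of the 3. DESeq2 called 5, 2 and 3 higher and none lower, and at an unadjusted p below 0.05 the counts were 7, 2 and 8 higher and 1, 3 and 0 lower. The interferon count was 1 without any of control 1, 2 or 3 or 2-MiCit libraries 1, 3 or 4, and OAS1 kept its call under every alternative. The NFKB1 call was lost without control 3 or 2-MiCit library 3, the TNFAIP3 call under 10 of the alternatives and the ASCL2 call under 7. OAS1, a sensor of double-stranded RNA, went from 16.9 ± 1.5 to 23.2 ± 1.3 CPM (log2 fold change 0.46 ± 0.07, adjusted p = 0.0031). Of the ABC pumps, ABCG2 rose from 58.6 ± 7.1 to 77.1 ± 6.5 CPM and ABCC4 from 117.9 ± 6.2 to 134.3 ± 2.4 CPM, while ABCC1 fell from 53.6 ± 3.9 to 46.0 ± 0.9 CPM; all 3 calls were lost without control 3 or 2-MiCit library 3.

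Over all genes, 3.02% were called lower and 4.65% higher. Few members of 7 more lists, the last of them chosen after values were seen, were called. Of these, 2 of 30 proteasome genes fell (PSMD14 and PSMA7), 2 of 14 heat shock and chaperone genes (HSPD1 and STIP1), 1 of 17 glycolysis genes (PFKP), 1 of 23 homologous recombination and Fanconi genes (RAD51AP1) and 1 of 10 polyamine genes (AMD1), with none higher, while 1 of 23 lysosome and autophagy genes (NPC2) and 3 of 46 clustered histone genes rose, with none lower. DESeq2 called 6, 2, 3, 3, 3, 0 and 0 lower and 0, 0, 1, 0, 0, 2 and 3 higher, and at an unadjusted p below 0.05 the counts were 8, 2, 3, 8, 4, 0 and 0 lower and 1, 0, 1, 0, 0, 5 and 8 higher. Without control 1 none of the first 6 lists had a call, and without 2-MiCit library 3 the lysosome and autophagy list alone of the 6 had 1. Without control 2 or control 3 the proteasome, heat shock and recombination lists had none, without control 3 or 2-MiCit library 4 the polyamine list had none, and without 2-MiCit library 4 neither had the proteasome and recombination lists. Ribosome biogenesis (26 genes), cytosolic ribosomal protein (33), hypoxia (20), immediate early (22), ERK feedback (17), metallothionein (8) and keratin (9) lists had no member called by edgeR. At an unadjusted p below 0.05 they had 1, 0, 5, 4, 1, 1 and 0 members higher and 11, 2, 1, 0, 2, 1 and 1 lower, and DESeq2 called 0, 0, 1, 0, 1, 0 and 0 higher and 3, 2, 1, 0, 0, 0 and 0 lower. Without both libraries numbered 2, edgeR called 3 immediate early genes higher and 2 ribosome biogenesis genes lower.

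SKCO1 and SW1417, lines counted in the same table and given the same dose and vehicle (4 libraries a group), gave the nearest comparison. Tested alone, SKCO1 had 1187 genes higher (8.1%) and 1589 lower (10.8%), and SW1417 had 414 (2.94%) and 570 (4.05%). The difference itself was tested as the HT29 effect minus the mean of the other 2 effects, in 1 edgeR fit. By that test 448 genes were higher in HT29 relative to the other lines and 349 lower, of 16090 tested (2.78% and 2.17%). Leaving out control 1 or control 3 brought the lower count to 211 or 193.

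The TXNIP and ARRDC4 effects were larger in HT29. TXNIP rose by log2 0.24 in SKCO1 and 0.31 in SW1417 (adjusted p = 1.5e-05 and 0.00073), and the HT29 effect exceeded the mean of these by 1.03 ± 0.10 (adjusted p = 2.8e-06). For ARRDC4 the excess was 1.09 ± 0.08 (adjusted p = 3.3e-08). Mitosis genes were called lower in all 3 lines, 21 of 30 in SKCO1 and 13 in SW1417, with medians of -0.12 and -0.09, beside 26 and -0.25 in HT29. The fall was larger in HT29 for 18 of the 30 and smaller for none, among them HMMR (difference -0.36 ± 0.06), CDC20 (-0.28 ± 0.05), CCNB1 (-0.23 ± 0.04) and TOP2A (-0.20 ± 0.03). Tubulins were called lower for 8 of 10 in SKCO1 and 6 of 9 in SW1417, beside 4 of 10 in HT29. Their medians were -0.18 and -0.17, beside -0.23 in HT29. All 4 tubulins called in HT29 fell more there than in the mean of the other lines, by -0.33 ± 0.04 for TUBB (adjusted p = 1.4e-05).

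The cholesterol list was called higher for 10 of 25 members in SKCO1 and 4 in SW1417, with medians of 0.09 and 0.02 beside 0.29 in HT29. The rise was larger in HT29 for 8 members, among them INSIG1 (difference 0.47 ± 0.06, adjusted p = 7.0e-05), HMGCS1, IDI1, MSMO1, MVK and SQLE, and smaller for none. For DNA replication, 26 of 40 genes were called lower in SKCO1 and 7 in SW1417, beside 1 in HT29, yet the difference was called for 3, higher in HT29 for CDC6 and CLSPN and lower for RPA3. The G1/S cyclins CCNE1 and CCNE2 had differences of 0.58 ± 0.10 and 0.72 ± 0.12 (adjusted p = 0.00077 and 0.00086), with log2 fold changes below 0 in both other lines.

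MUC13 and TFF3 rose by 0.49 and 0.54 in HT29 beside -0.06 and 0.04 in SKCO1 and 0.06 and -0.05 in SW1417, and both differences were called (0.49 ± 0.05 and 0.54 ± 0.09, adjusted p = 2.8e-06 and 0.00077). CEACAM5 fell in HT29 and had a log2 fold change of 0.37 in SKCO1 and -0.12 in SW1417 (difference -0.49 ± 0.09, adjusted p = 0.0025). SLC40A1 rose by 0.42 in HT29 and 0.43 in SKCO1, and the difference from the mean of both lines was not called (0.14 ± 0.05, adjusted p = 0.14). AKR1C3 rose in all 3 lines, by 0.41, 0.46 and 0.62, with a difference of -0.12 ± 0.08 (adjusted p = 0.49).

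**Figure D4:**
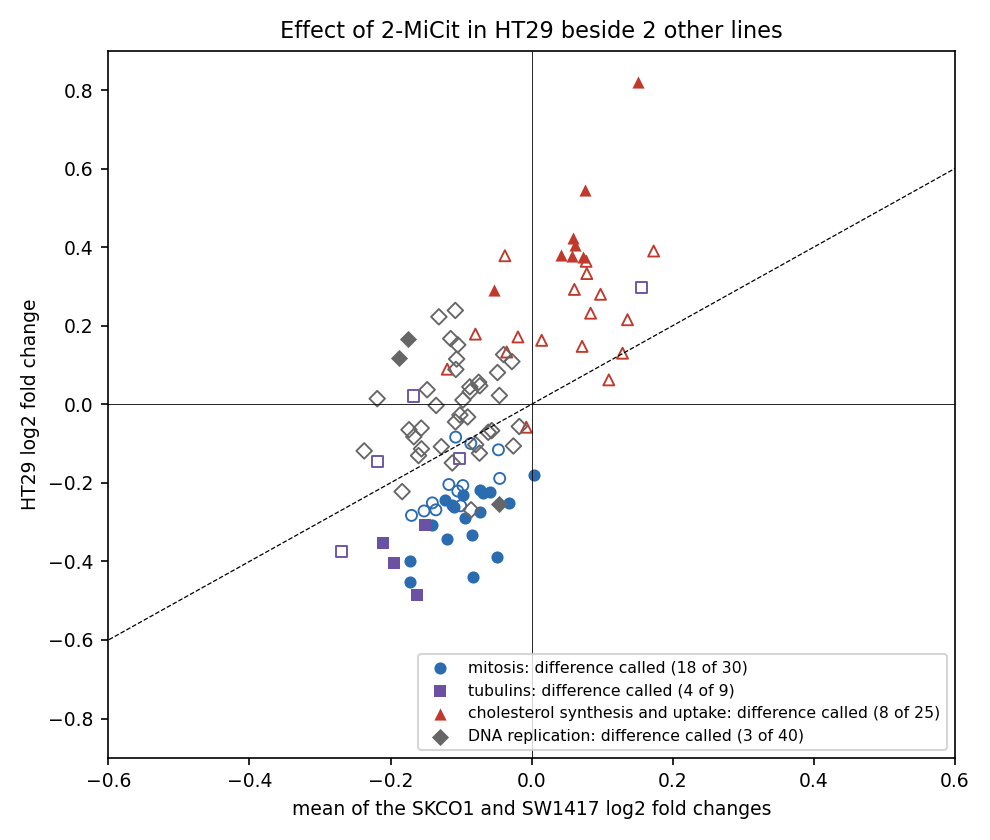
Log2 fold change in HT29 (vertical axis) against the mean of the SKCO1 and SW1417 log2 fold changes (horizontal axis), 1 point per gene of 4 lists. Filled points are genes whose difference was called, open points are not, and the dashed line marks equal effects; TUBB2B, which was not tested in SW1417, is left out. Filled mitosis and tubulin points lie below the line and filled cholesterol points above it.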

How the data were processed

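RNA sequencing of HT29 (4 control and 4 2-MiCit libraries) was analysed from the gene count table deposited for 3 lines. Per the labels' protocols, total RNA was extracted with a GenElute kit and libraries were made with Illumina Stranded mRNA Prep. The authors' programs, per the submitters' processing notes, included Salmon 1.5.0, Trimmomatic 0.39, bcl2fastq 2.20.0 and DESeq2, and the build was GRCh38 p13. The deposited counts are whole numbers per Ensembl gene; how Salmon's estimates became whole numbers is not given in the labels. A second deposited table holds normalised values (signal); its ratio to the counts gave the authors' gene-wise factors, used as an alternative. Every library column of the table was used (0 left out). Genes without a symbol held 3.55 to 3.64% of counts and stayed in the tests.

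The main test was edgeR 4.0.16's quasi-likelihood F test (R 4.3.3, limma 3.58.1; filterByExpr, TMM scaling, robust fit, Benjamini-Hochberg adjusted p below 0.05) on the 8 libraries. The difference between lines was a contrast in 1 fit over 24 libraries. CPM values use TMM-scaled library sizes, except the marker sums and the marker means given beside them, which use total counts. Intervals of depth cover counting error only. Of 16454 identifiers, 15328 had a symbol in a current gene-name table or in GENCODE 29; coordinates are from GENCODE 29 (GRCh38), and promoters from RefSeq (GRCh38.p14). The code was tested on simulated data first. Alternatives were DESeq2 1.42.0, RLE scaling, no or a stricter filter (mean of 5 CPM), a replicate block, the authors' factors, a transcript length correction, each library left out in turn and 1 fit over the 3 lines. Leaving out both libraries numbered 2 was added after seeing the data.

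The rule for named genes took the 12 higher and 12 lower genes with the largest changes (at least 5 CPM, groups that do not overlap), up to 4 called members of each list and direction, some fixed single genes, and the 6 genes with the largest difference between lines in each direction; some of these, and some lists, are not reported here. Further list members given with values were chosen after their values were seen. Members and lists were chosen with earlier results of these data known. Deviations of same-numbered libraries correlated at 0.033 to 0.101. The numbers were not taken to pair the samples, and these correlations cannot settle whether they do.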

Additional observations from a re-analysis of the deposited data

Results flagged for a closer look

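In 13 of 182 groups of 4 libraries (91 genes, control and 2-MiCit apart) the highest or lowest library stood far from the other 3; chance flags about 1 in 20 such groups. In 7 of the 13 that library was 2-MiCit library 2. There HMGCS1 was at 119 CPM beside 96.9 to 98.3 in the others, AKR1B10 at 116 beside 94.6 to 96.8, TK1 at 203 beside 183 to 184 and CDX1 at 1.31 beside 0.702 to 0.788. It was the lowest for H2AC6 (15.9 beside 20.8 to 21.6), SLC40A1 (113 beside 121 to 122) and HNRNPDL (181 beside 202). 2-MiCit library 1 stood high for ATG4C (5.48 beside 4.02 to 4.18) and CCN2 (21.5 beside 17.1 to 17.6), 2-MiCit library 4 high for TUBB4B (440 beside 398 to 403) and 2-MiCit library 3 low for FMO5 (5.01 beside 6.49 to 6.73). Among controls, TOP2A was low in control 2 (606 beside 635 to 638) and MDM2 high in control 1 (63 beside 58.1 to 58.9).

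Many named genes were chosen for a change in HT29 and some for its difference from the other lines. A count among them follows in part from that choice. Over all 16090 genes tested for that difference, 2.78% were called higher in HT29 and 2.17% lower. For 55 of the named genes the HT29 effect differed from the mean effect in SKCO1 and SW1417 by the edgeR test of that difference. Given as HT29 minus that mean on the log2 scale, the effect was more positive in HT29 for these genes: RASL11A 1.22, ARRDC4 1.09, CDX1 1.06, TXNIP 1.03, PHGR1 0.76, CCN2 0.75, PRLR 0.73, PLA2G4F 0.72, AC013717.1 0.72, H2AC6 0.71, GABRP 0.68, TNFAIP3 0.65, TFF3 0.54, OAS1 0.5, MUC13 0.49, INSIG1 0.47, ACSS2 0.39, IDI1 0.34, HMGCS1 0.34, CDKN1A 0.33, MSMO1 0.3, ACSS1 0.29, CEACAM1 0.28, ABCC4 0.28, NFKB1 0.26, VIL1 0.18 and HERPUD1 0.17.

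It was more negative in HT29 for these genes: AL139300.1 -1.22, ADAM19 -0.65, SEMA3A -0.56, CEACAM5 -0.49, DHRS2 -0.48, ATG4C -0.46, FAM72D -0.42, C18orf54 -0.41, HMMR -0.36, NTSR1 -0.34, TUBB -0.33, CDC20 -0.28, HNRNPDL -0.25, CCNB1 -0.23, CLK3 -0.23, UBE2C -0.23, LARS1 -0.22, TUBA1B -0.21, RPA3 -0.21, TOP2A -0.2, PYCR1 -0.2, IARS1 -0.2, ABCC1 -0.19, PCCB -0.16, TUBB4B -0.16, HSPA5 -0.15, PHGDH -0.15 and TUBA1C -0.14. CDKN1A was not called in HT29 alone, and ATG4C, TNFAIP3 and PHGDH lost their HT29 calls under 10, 10 and 9 of the alternatives.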

How the results depend on the processing

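Of the 76 named genes called in HT29, 43 kept their call under every alternative and none changed direction; 26 of the other 33 lost it with the authors' gene-wise factors and 0 with DESeq2. Among the 15 not called, UCK2, TK1, CDKN1A, UPP1 and IDH2 were called under at least 1 alternative. The count of genes lower in HT29 was 726 with DESeq2, against 419. With the authors' gene-wise factors 294 genes were higher and 181 lower, and for the difference between lines 218 and 118. In 1 fit over 3 lines 1221 were higher and 1270 lower. Leaving out each library in turn gave 299 to 594 higher and 153 to 520 lower, and for the difference between lines 350 to 581 and 193 to 340. The cause was not tested. With the replicate number as a block, 1150 genes were higher and 1034 lower in HT29, and 677 and 579 by the difference between lines. Same-numbered libraries correlated at 0.033 to 0.101. Controls 1, 2 and 4 each correlated most with the treated library of their own number (0.067, 0.101 and 0.034). Control 3 correlated most with 2-MiCit library 4 (0.082). Correlations this weak cannot settle whether same-numbered libraries share a culture or day, which was not tested. The block was therefore used only as an alternative. Without both libraries numbered 2, chosen after seeing the data, the difference between lines gave 537 higher and 309 lower. With 4 libraries a group, the smallest change called was 0.114 on the log2 scale. In the simulated counts the HT29 test recovered 30% of 1.2-fold and 72% of 1.5-fold changes. A gene not called may thus still have changed by such amounts.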

Other observations

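Further gene groups, chosen after their values were seen and so given without support from their counts, moved in HT29. Of 15 genes that build the brush border of absorptive cells, 8 rose and none fell, with a median log2 fold change of 0.31; DESeq2 called 8 higher and 1 lower, and at an unadjusted p below 0.05 the counts were 9 and 1. PDZK1, a scaffold for apical transporters, went from 10.1 ± 0.8 to 18.4 ± 0.8 CPM (log2 fold change 0.86 ± 0.07, edgeR adjusted p = 0.00013). The scaffold USH1C went from 87.6 ± 5.5 to 115.2 ± 4.6 CPM and the motor MYO1D from 85.7 ± 1.4 to 105.9 ± 2.8 CPM. VIL1, MYO7B, ESPN, NHERF1 and NHERF4 were the others. The count was 4 without control 1, 2 or 3 or 2-MiCit library 3, 5 without 2-MiCit library 2 or 4, and 3 with the authors' gene-wise factors. Of 238 solute carrier genes matched by symbol, 23 rose and 2 fell, beside 4.65% and 3.02% of all genes; DESeq2 called 29 and 3, and at an unadjusted p below 0.05 the counts were 54 and 13. Those that fell were SLC16A14, from 0.68 ± 0.09 to 0.29 ± 0.14 CPM, and SLC2A4RG, which has the symbol prefix but encodes a regulator and not a carrier. Among those that rose were SLC19A2 (thiamine), SLC7A2 and SLC7A7 (cationic amino acids) and SLC5A1 (glucose). SLC19A2 went from 47.2 ± 2.8 to 59.7 ± 2.2 CPM and SLC5A1 from 16.0 ± 1.1 to 19.5 ± 0.7 CPM. The solute carrier count was 10 without control 1, 11 without control 3, 13 without 2-MiCit library 3, 14 without 2-MiCit library 4 and 9 with the authors' gene-wise factors.

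Of 28 kinesin genes, 10 fell and 2 rose, beside 3.02% and 4.65% of all genes called lower and higher. KIF11, KIF20A, KIF23 and KIF2C are also in the mitosis list. KIF12 went from 22.0 ± 0.9 to 31.6 ± 1.7 CPM and KIF3B from 224.1 ± 4.9 to 251.5 ± 4.9 CPM. The count that fell was 5 without control 3 or with the authors' gene-wise factors. Of 21 filamin, LIM and actin adhesion genes, 4 fell and none rose; DESeq2 also called 4 and 0, and at an unadjusted p below 0.05 the counts were 6 lower and 2 higher. FLNA, the actin crosslinker filamin A, went from 1137 ± 40 to 877 ± 61 CPM (log2 fold change -0.37 ± 0.05, edgeR adjusted p = 0.0015), and PDLIM7, ABLIM3 and TPM3 were the others. That count was 2 without control 1, control 3 or 2-MiCit libraries 1, 3 or 4.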
